A study of Mus musculus with 4 samples.

Results

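The type I interferon-stimulated genes described here are 35 members, chosen by symbol from 27998 listed mouse genes, and their UMIs (molecule tags) were counted in 15755 cells of 4 droplet single-cell libraries. By role the members comprise 18 effectors, 5 genes of the oligoadenylate synthetase (OAS) family, 5 nucleic acid sensors, 3 transcription factors and 4 regulators or protein modifiers. The libraries, 1 per group, were named Ac, C, aC+C and IgG, and the labels spell out no agent, dose, time or tumor model. The sources disagree on the material. The titles name immune cells that infiltrated a tumor, whereas the cell type and source fields say goblet cells and the protocol describes goblet cells sorted from the gut of RedMUC298trTg reporter mice. The only age, 6 to 8 weeks, stands in the genotype field of all 4 groups, no genotype or strain of a tumor host is given, and whether animals were pooled is not stated. Each group is read here only as the library that carries its name.

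The marker genes went with the titles and against the goblet cell fields. Muc2, the main secreted mucin of goblet cells, had 2 UMIs in Ac, 3 in C, 4 in aC+C and 2 in IgG, while Ptprc (CD45), carried by all leukocytes, had 36014, 39343 and 28671 UMIs in Ac, C and aC+C and 39740 in IgG. Fcgbp, another goblet cell gene, had 47 UMIs in aC+C and 0 in the other libraries. The epithelial gene Epcam had 353, 541 and 305 UMIs in Ac, C and aC+C and 473 in IgG. Total UMIs per library ranged from 61519049 to 75665201, and 28 barcodes occurred in more than 1 library. Barcodes were placed by marker genes, none of them a member, into 7 classes that resemble the types they are named after. There were 3942 CD8 T cells, 2116 other T cells, 1662 NK cells, 3844 myeloid cells, 382 dendritic cells, 428 stromal cells and 570 tumor-like cells, and 2811 cells fell in no class. The tumor-like gate rested on Hmga2, Tm4sf1, Krt8, Krt18, Cav1, Prkg2 and Cald1, which mark mesenchymal or epithelial cells and do not prove malignancy. With 1 library per group no treatment difference could be tested.

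Type I interferons (interferon alpha and beta) bind the IFNAR1 and IFNAR2 receptor chains, whose kinases JAK1 and TYK2 phosphorylate transcription factors, STAT2 among them. STAT2 and IRF9 take part in the complex ISGF3, which binds interferon-stimulated response elements (ISREs) in the promoters of antiviral genes. Interferon gamma, made mainly by T and NK cells, acts through gamma-activated sites and shares many targets with type I interferon, so a transcript of this family does not by itself name the interferon that acted. In tumors the programme is known from macrophages, dendritic cells, lymphocytes and malignant cells alike.

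The ISRE was looked for in the promoters of the members. RefSeq windows of 300 bases (250 before and 50 after the gene start, GRCm38.p6, the build the authors call mm10) were found for 26 of the 35 members. The ISRE core searched was GAAA, then 2 bases of any kind, then GAAA again, on both strands, with overlapping matches counted. It occurred for 13 of the 26 matched members, or 50%, against 3.99% of the 27025 genes with a window. The gamma-activated site TTCNNNGAA, where N is any base and which reads alike on both strands, occurred for 7 members, or 26.9%, against 9.55% of all genes with a window. One site is printed for each of 8 members with high or changing levels below, 5′ to 3′ on the gene's strand, with the ISRE match in capitals. A run that opens and closes with TTTC is the same core on the opposite strand.
Isg15, chr4:156200865-156200894, minus strand: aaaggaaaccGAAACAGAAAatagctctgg
Ifit1, chr19:34640775-34640804, plus strand: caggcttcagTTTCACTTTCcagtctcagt
Ifit3, chr19:34583363-34583392, plus strand: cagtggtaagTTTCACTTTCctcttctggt
Rsad2, chr12:26456553-26456582, minus strand: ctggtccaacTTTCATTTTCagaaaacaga
Bst2, chr8:71537577-71537606, minus strand: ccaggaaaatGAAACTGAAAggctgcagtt
Oas1a, chr5:120907520-120907549, minus strand: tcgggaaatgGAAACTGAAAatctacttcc
Oas3, chr5:120777715-120777744, minus strand: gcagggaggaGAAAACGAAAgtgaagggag
Stat2, chr10:128270266-128270295, plus strand: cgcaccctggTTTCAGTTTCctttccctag
The printed cores of Ifit1 and Ifit3 are identical, and those of Bst2, Oas1a and Stat2 share the same letters, read on the opposite strand in Stat2. Ifit1 and Ifit3 each hold a second, separate match, which has the letters of the Stat2 core on the same strand as there. Bst2 and Oas1a hold a second, overlapping match, and Isg15 holds 3 overlapping matches in one run. Ifih1, Ddx58, Eif2ak2, Trim30a and Ifit1bl1 were the other members with a core, whereas Ifit2, Isg20, Cmpk2, Samhd1, Ifi44, Ifi35, Xaf1, Ifi47, Oasl1, Oasl2, Irf7, Irf9 and Herc6 had none of these letters within the window. A match describes the sequence and is neither a measured binding site nor a cause of a level. Mx1, Ifi27l2a, Rtp4, Oas2, Dhx58, Zbp1, Pyhin1, Usp18 and Parp14 were not matched.

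Levels are given as CPM, the UMIs of a member per 1000000 UMIs of the class. Summed over the 35 members they were highest in other T and myeloid cells and lowest in NK cells, in each of the 4 libraries. Other T cells held 9567, 6922 and 9843 CPM in Ac, C and aC+C and 7667 CPM in IgG, with a mean of 8500 ± 1429 (SD, n = 4 libraries). Myeloid cells held 6585, 7048 and 8295 CPM in Ac, C and aC+C and 8551 CPM in IgG, a mean of 7620 ± 953 (SD, n = 4). Their ranges overlapped, so the order of these classes is not fixed. Stromal cells averaged 4459 ± 699, CD8 T cells 3903 ± 344, dendritic cells 3450 ± 564 and tumor-like cells 2786 ± 575 CPM (SD, n = 4 each), and each of these neighbours overlapped the next. NK cells, at 1987, 1790 and 1794 CPM in Ac, C and aC+C and 1849 CPM in IgG, lay below every other class. Free RNA, meaning barcodes of 1 to 50 UMIs, held 4963, 4792 and 5493 CPM in Ac, C and aC+C and 4767 CPM in IgG. In each library that was above the sums of stromal, CD8 T, dendritic, tumor-like and NK cells.

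**Figure D1:**
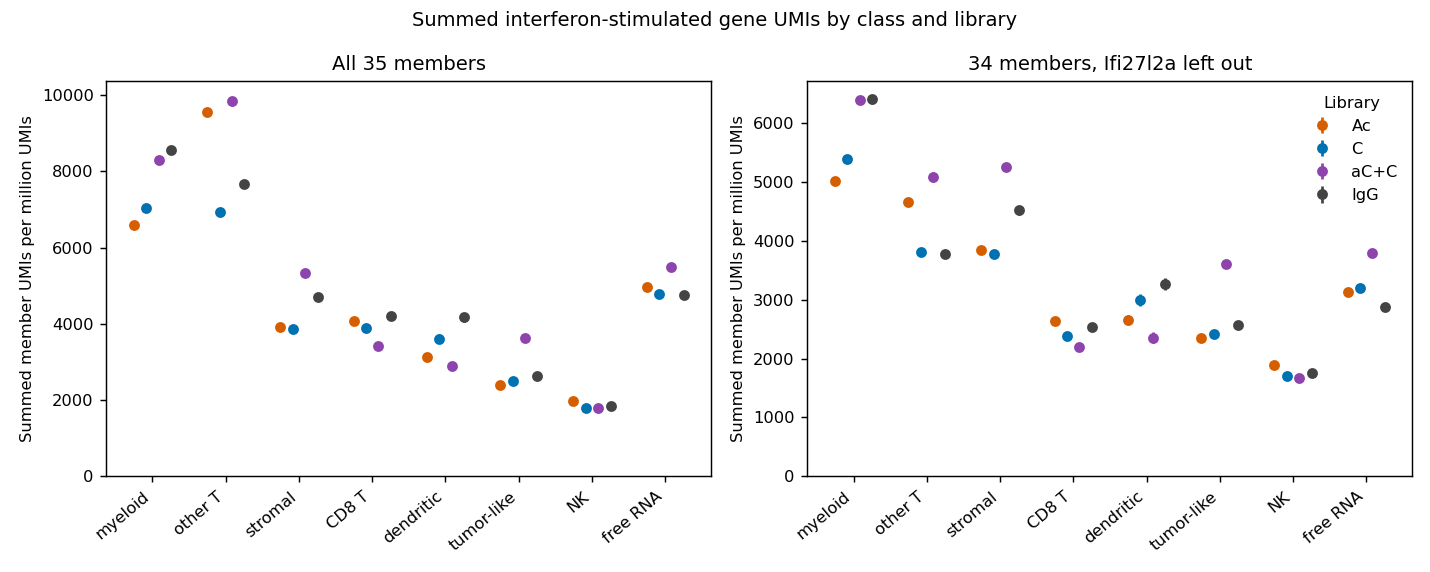
Summed member UMIs per 1000000 UMIs (y) in 7 classes and in free RNA, meaning barcodes of 1 to 50 UMIs (x), with 1 point per library (Ac, C, aC+C, IgG) and exact Poisson 95% intervals. NK cells lie lowest at 1790 to 1987 in the panel of all 35 members, and without Ifi27l2a, in the other panel, myeloid and other T cells come closer to stromal cells.

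A single effector, Ifi27l2a, a small hydrophobic protein whose transcript is strongly interferon-induced, carried much of the lymphocyte sum. It made up 49.1% of all member UMIs in other T cells, 37.6% in CD8 T cells and 23.6% in myeloid cells, against 5.08% in NK cells, 2.31% in stromal cells and 1.36% in tumor-like cells. In other T cells it stood at 4908, 3111 and 4754 CPM in Ac, C and aC+C and 3892 CPM in IgG, above every other class in each library. NK cells held only 92.0, 93.5 and 123 CPM in Ac, C and aC+C and 86.0 CPM in IgG. Free RNA, read from barcodes of 1 to 50 UMIs, held 1826, 1589 and 1699 CPM in Ac, C and aC+C and 1894 CPM in IgG, so that NK, stromal and tumor-like cells lay far below the free RNA level and their own Ifi27l2a cannot be told apart from it. Dendritic cells, at a mean of 632 CPM, and CD8 T cells, at a mean of 1466 CPM, also lay below it, and the same holds for them. The myeloid mean of 1818 CPM lay within the free RNA range. Without Ifi27l2a, the sum was 4659, 3810 and 5089 CPM in other T cells of Ac, C and aC+C and 3775 CPM in IgG, below the myeloid sum of 5024, 5398 and 6384 CPM and 6401 CPM in the same libraries.

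Of the 35 members, 22 had their highest mean level in myeloid cells, 8 in other T cells, 4 in stromal cells and 1 in dendritic cells. The range over libraries lay wholly above that of the next class for 9 of the 22, 2 of the 8, 2 of the 4 and 0 of the 1. The same shares over all genes were not computed, so no preference of the members is read from these counts. Among effectors, Bst2 (tetherin, which holds budding virus at the cell surface) was the one most abundant in stromal cells, at 1211, 1301 and 1488 CPM in Ac, C and aC+C and 1388 CPM in IgG. Tumor-like cells held 882, 933 and 1149 CPM of Bst2 in Ac, C and aC+C and 1030 CPM in IgG, and it made up 34.1% of all member UMIs there. The stromal range did not overlap that of any other class. Ifit3, Ifi44 and Xaf1 were the other members that peaked in stromal cells, Ifit3 and Xaf1 with ranges that overlapped the next class. Samhd1, which hydrolyses deoxynucleotides, stood at 522, 604 and 830 CPM in myeloid cells of Ac, C and aC+C and 752 CPM in IgG, above its range in other T cells. Isg20, an exonuclease, peaked in other T cells at 309, 211 and 332 CPM in Ac, C and aC+C and 196 CPM in IgG. Its CD8 T level was 176, 141 and 123 CPM in Ac, C and aC+C and 135 CPM in IgG.

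All 5 OAS genes peaked in myeloid cells in all 4 libraries. OAS enzymes make 2′-5′-linked oligoadenylate, which activates RNase L, and the OAS-like genes Oasl1 and Oasl2 belong to the same family. Oasl2 stood at 148, 171 and 185 CPM in myeloid cells of Ac, C and aC+C and 205 CPM in IgG. NK cells held 7.7, 7.0 and 5.8 CPM of Oasl2 in Ac, C and aC+C and 7.8 CPM in IgG. Oas2 was nearly missing from NK cells, with a mean of 0.367 CPM against 27.2 CPM in myeloid cells.

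Among sensors, Zbp1, which binds Z-form nucleic acid, had myeloid levels of 189, 233 and 275 CPM in Ac, C and aC+C and 269 CPM in IgG. Its other T levels were 250, 205 and 272 CPM in Ac, C and aC+C and 205 CPM in IgG, so both classes overlapped. Pyhin1, of the PYHIN family of DNA-binding proteins, was split by lineage instead. Myeloid cells held 186, 196 and 229 CPM of Pyhin1 in Ac, C and aC+C and 263 CPM in IgG, and stromal cells 3.7, 5.3 and 6.1 CPM in Ac, C and aC+C and 3.9 CPM in IgG. Ifih1 (MDA5) and Dhx58 (LGP2), which bind double-stranded RNA, were also highest in myeloid cells, whereas Ddx58 (RIG-I) was highest in other T cells at a mean of 82.2 CPM and lowest in dendritic cells at 18.2 CPM.

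Irf7, the factor that amplifies type I interferon production, had the most UMIs of the 3 transcription factors. Myeloid cells held 431, 468 and 485 CPM in Ac, C and aC+C and 553 CPM in IgG, and dendritic cells, the next class, 237, 218 and 169 CPM in Ac, C and aC+C and 206 CPM in IgG. These ranges did not overlap. Stat2 peaked in myeloid cells at a mean of 62.5 CPM, and Irf9 was nearly even between other T cells (65.5 CPM) and myeloid cells (62.4 CPM). Of the regulators, Trim30a, known in mouse to restrain Toll-like receptor signalling, had 192, 216 and 252 CPM in myeloid cells of Ac, C and aC+C and 254 CPM in IgG. Stromal cells held 56.3, 65.2 and 77.5 CPM of Trim30a in Ac, C and aC+C and 83.8 CPM in IgG. Usp18, which removes Isg15 and dampens receptor signalling, peaked in myeloid cells, and Herc6, the ligase for Isg15 in mouse, and Parp14, an ADP-ribosyltransferase, peaked in other T cells.

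**Figure D2:**
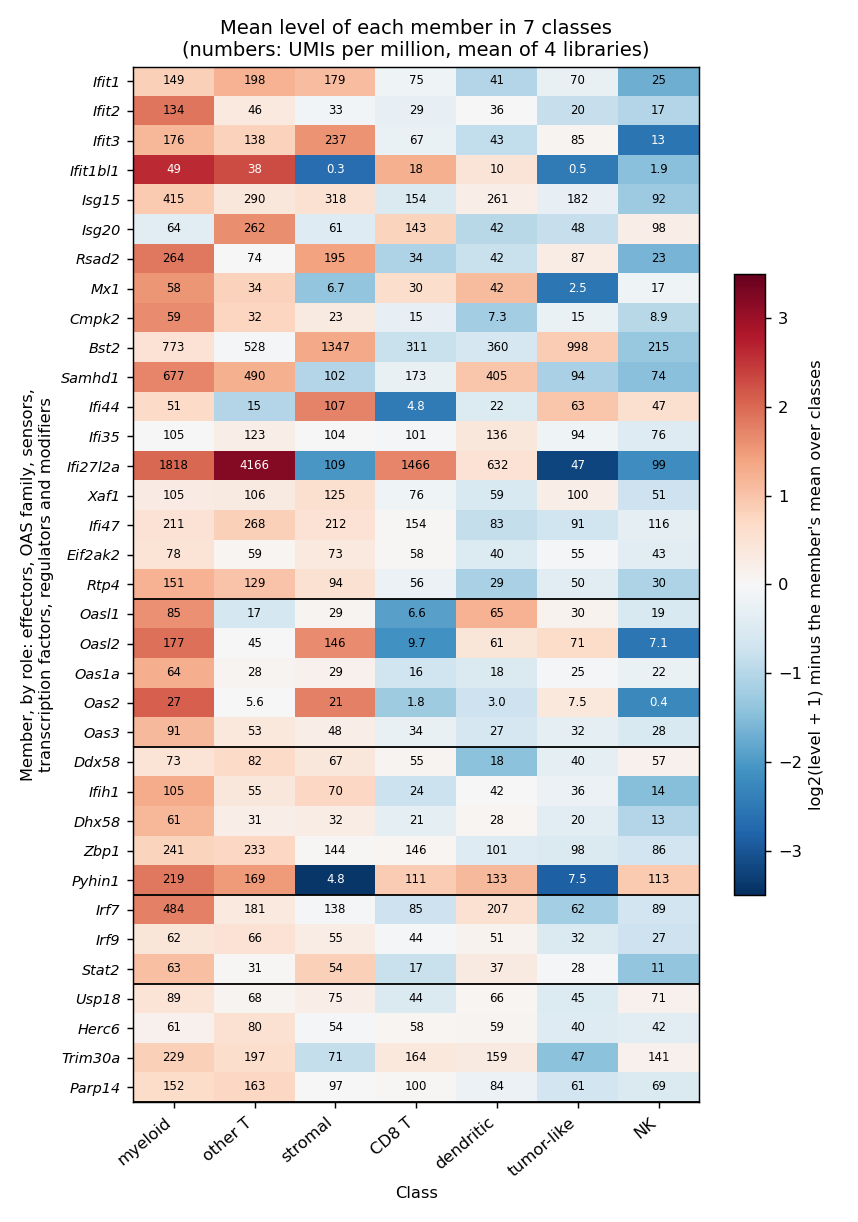
Mean level of each member (rows, by role) in 7 classes (columns). Printed numbers are UMIs per 1000000 UMIs, the mean of 4 libraries, and colour is log2(level + 1) minus the member's own mean over classes, so rows are not compared with each other. Most rows are darkest in the myeloid column, with Bst2 and Ifi44 in the stromal and Isg20 and Ifi27l2a in the other T column.

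Between classes, UMI sums of each library and class were compared with edgeR's quasi-likelihood test, with the library as a block, over 12374 genes. All 35 members were tested, and a call is a Benjamini-Hochberg adjusted p under 0.05. The 4 libraries behind each class also differ in treatment, so the spread includes it.

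Myeloid over CD8 T cells gave the widest shift. There 31 of the 35 members were higher, against 38.7% of all genes, and 1 was lower, against 39.6%. The median member log2 fold was 1.48, against -0.02 over all genes. Every OAS gene, sensor and transcription factor was higher, as were 15 of 18 effectors and 3 of 4 regulators. Oasl2 led with a log2 fold of 4.35 ± 0.21 (SE, adjusted p = 4.205e-16), followed by Oas2 at 4.06, Oasl1 at 3.80, Ifi44 at 3.51 and Rsad2, the antiviral enzyme viperin, at 3.03. Isg20 was the only member lower in myeloid cells, by a log2 fold of -1.08 ± 0.17 (SE, adjusted p = 2.609e-06). All 10 dissociation-response genes (Fos, Jun, Egr1 and others) were also higher in myeloid cells, and their part in the result was not tested.

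Other T cells are the T cells without a UMI of Cd8a or Cd8b1, and T cells with such UMIs below the CD8 cut fell in no class. They were higher than CD8 T cells for 30 of the 35 members, against 21.3% of all genes, and lower for none, against 23.7%. Median UMIs per cell lay between 4411.5 and 5240 in other T cells and between 10951 and 13433 in CD8 T cells. The part of this difference in depth was not tested. The median member log2 fold was 0.72, against -0.01. Oasl2 differed by 2.19 ± 0.25 (SE, adjusted p = 9.915e-08), Ifi44 by 1.56 ± 0.33 (adjusted p = 3.272e-04), Oas2 by 1.54, Ifi27l2a by 1.43 ± 0.20 (adjusted p = 1.897e-06) and Samhd1 by 1.40. Here 6 of 10 dissociation-response genes were higher too, which was not tested as a source.

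NK cells went the other way. Of the 35 members 19 were lower than in CD8 T cells, against 19.7% of all genes, and 5 were higher, against 19.4%. Ifi27l2a fell by 3.71 on the log2 scale (SE 0.22, adjusted p = 4.466e-13), followed by Ifit1bl1 at -2.96, Ifit3 at -2.18, Oas2 at -2.00 and Ifit1 at -1.35. The higher ones were Ifi44, at 3.53 ± 0.24 (SE, adjusted p = 4.397e-12), Oasl1 at 1.70 ± 0.22 (adjusted p = 6.038e-07), Usp18 at 0.88, Oas1a at 0.67 and Ddx58 at 0.22. Without the library block 18 of these 24 calls were kept, and Oas1a and Ddx58 among the higher and Isg15, Xaf1, Eif2ak2 and Parp14 among the lower members missed the threshold. Leaving out single libraries kept 18 to 23 calls, and classes built by clustering kept 18. Ifi44, a cytoplasmic interferon-induced protein, stood at 56.6, 44.0 and 41.3 CPM in NK cells of Ac, C and aC+C and 45.5 CPM in IgG, against 2.7, 7.1 and 2.7 CPM and 6.7 CPM in CD8 T cells of the same libraries.

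Dendritic cells were lower than myeloid cells for 30 of the 35 members, against 24.9% of all genes, and higher for 1, against 21%. The median member log2 fold was -1.19, against -0.08. The log2 fold was -3.28 for Oas2, -2.98 for Cmpk2, a mitochondrial nucleotide kinase whose gene neighbours Rsad2, -2.67 for Rsad2, -2.38 for Rtp4 and -2.36 for Ifit1bl1. Dendritic UMIs over all libraries were few, 13 for Oas2, 35 for Cmpk2 and 46 for Ifit1bl1, beside 194 for Rsad2 and 139 for Rtp4. The order of these folds is therefore uncertain. Ifi35, at 0.42 ± 0.14 (SE, adjusted p = 1.585e-02), was the 1 member higher, and it missed the threshold when the Ac or the C library was left out. In the dissociation list 9 of 10 genes were lower in dendritic cells, and this was not tested as a source. The myeloid gate also held plasmacytoid dendritic markers at 133 to 166 CPM, summed over 5 genes, against 60.2 to 100 CPM in the dendritic gate. Stromal cells held 579 to 655 CPM of the same list, so it does not single out plasmacytoid cells.

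Stromal cells were lower than myeloid cells for 28 of the 35 members, against 37.4% of all genes, and higher for 2, against 38.4%. Ifi44 (log2 fold 0.78) and Bst2 (0.49) were the higher ones. Pyhin1 differed by -5.76, Ifi27l2a by -4.42, Mx1, a GTPase that blocks influenza virus, by -3.41 and Samhd1 by -3.03. Ifit1bl1 had 4 UMIs in all stromal cells together and none in the IgG library, so its fitted fold of -7.70 depends on the prior count and is no bound. Tumor-like cells, set against stromal cells, were lower for 27 of the 35 members, against 31.6% of all genes, and higher for none, against 22.9%. The log2 fold was -1.49 for Ifit3, -1.41 for Oas2, -1.39 for Mx1, -1.34 for Ifit1 and -1.19 for Ifi47, an immunity-related GTPase. In the dissociation list 7 of 10 genes were lower and 0 higher in tumor-like cells, and this was not tested as a source. Median UMIs per cell lay between 61562 and 74532 in tumor-like cells and between 30878 and 35379 in stromal cells, and the part of this difference was not tested. The gates share markers. Stromal cells held 1346 to 1547 CPM of the tumor-like marker list, against 2419 to 2565 CPM in tumor-like cells. Tumor-like cells held 2343 to 2513 CPM of the stromal list, against 11311 to 15043 CPM in stromal cells.

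**Figure D3:**
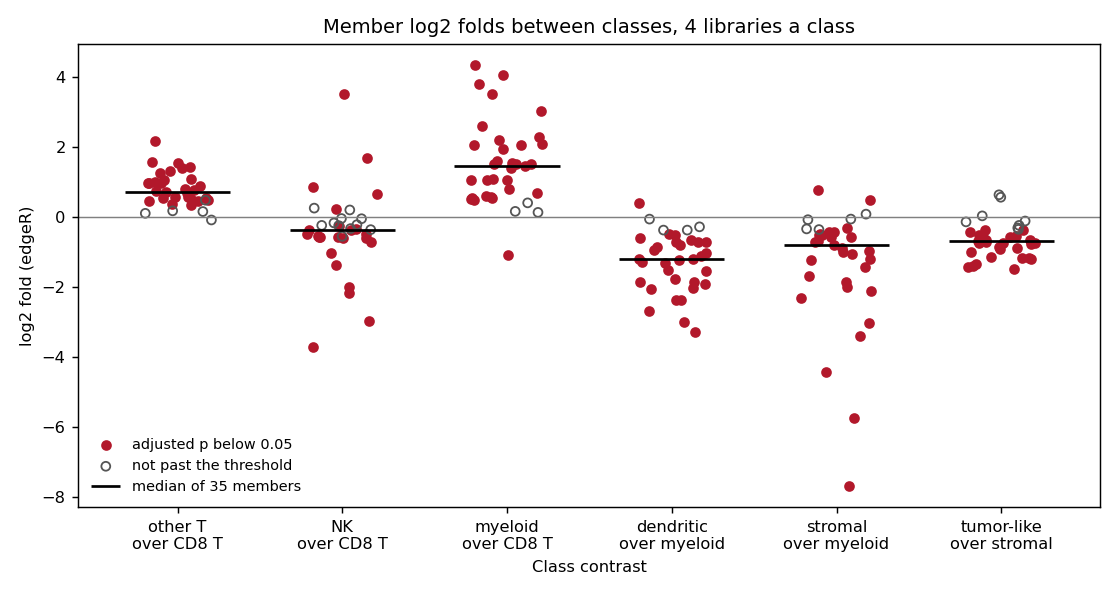
Log2 fold of each of the 35 members (y, edgeR) in 6 contrasts between classes (x), 4 libraries a class. Filled points passed an adjusted p of 0.05, open points did not, and bars are member medians, which run from 1.48 for myeloid over CD8 T to -1.19 for dendritic over myeloid.

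The rest of the pathway was read from lists chosen with the members. Of 31 further interferon-stimulated genes tested, 25 were higher and 3 lower in myeloid than in CD8 T cells, where 38.7% of all genes were higher and 39.6% lower. In other T over CD8 T cells 21 were higher and 2 lower, against 21.3% and 23.7% of all genes. In NK over CD8 T cells 6 were higher, near the 19.4% of all genes, and 10 lower, against 19.7%. In dendritic over myeloid cells 0 were higher and 23 lower, against 21% and 24.9%. Of 12 receptor and signalling genes, 9 were higher and 3 lower in myeloid than in CD8 T cells, against the same 38.7% and 39.6%. The receptor chain gene Ifnar2 differed by a log2 fold of 2.41 ± 0.07 (SE, adjusted p = 3.695e-21) and Ifnar1 by 0.37 (adjusted p = 4.904e-05). In stromal against myeloid cells both genes were lower, with log2 folds of -2.07 for Ifnar1 and -2.06 for Ifnar2. Of 10 upstream sensing genes, 9 were higher and 1 lower in myeloid than in CD8 T cells, against the same shares, with the RNA receptor gene Tlr7 at 5.00 ± 0.21 (adjusted p = 1.206e-17). Of 13 interferon gamma targets, 9 were higher and 2 lower in that contrast, again against 38.7% and 39.6%. In other T over CD8 T cells 9 were higher and 1 lower, against 21.3% and 23.7%. In NK over CD8 T cells 2 were higher and 2 lower, and in dendritic over myeloid cells 4 were higher and 6 lower, beside the shares above. Their part in the member contrasts was not tested.

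Type I interferon ligands were hardly seen in the gated classes. The 2811 cells in no class, which take in cells past the plasmacytoid dendritic bound of the gates, were not searched. Ifnb1, which encodes interferon beta, had 5 UMIs in all myeloid cells, 2 in CD8 T cells, 2 in stromal cells, 1 in tumor-like cells and none in the other classes. Ifng was abundant by comparison, with 14673 UMIs in CD8 T cells, 1660 in NK cells and 1396 in other T cells. Type I interferon transcripts at such counts could not be compared between groups at this depth.

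Within a class the members were not spread evenly over cells. Each cell was thinned to 1000 UMIs, and cells were ranked by the UMIs of all members but Ifi27l2a and the one examined. A member that ignored the rank would have about 10% of its UMIs in the top 10% of cells. In myeloid cells that share was 83.0% for Ifit1bl1, 70.0% for Cmpk2, 68.4% for Rsad2, 62.6% for Ifit1, 61.9% for Ifit3 and 61.1% for Ifit2, the last 3 encoding proteins that bind viral RNA. It was 46.5% for Isg15, a ubiquitin-like protein joined to other proteins. At the other end it was 20.4% for Bst2, 20.2% for Zbp1, 18.0% for Ifi27l2a, 16.7% for Samhd1 and 10.3% for Irf9. Ifi27l2a, Bst2 and Samhd1, which had the most myeloid UMIs, were thus spread more evenly over cells than the Ifit genes, Rsad2 and Cmpk2.

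Other T cells showed a similar split, with 68.0% for Mx1, 66.2% for Rsad2 and 61.7% for Ifit3, against 24.3% for Irf9, 21.6% for Ifi27l2a and 19.1% for Ifi35. In tumor-like cells Rsad2 reached 73.3%, Ifit1 58.3% and Ifit3 57.4%, and Bst2 20.4%. Medians over members with at least 50 thinned UMIs ranged from 30.7% for 11 members in tumor-like cells to 36.6% for 32 members in other T cells. Cells of 1 library share their source, so these shares describe the libraries and carry no test.

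**Figure D4:**
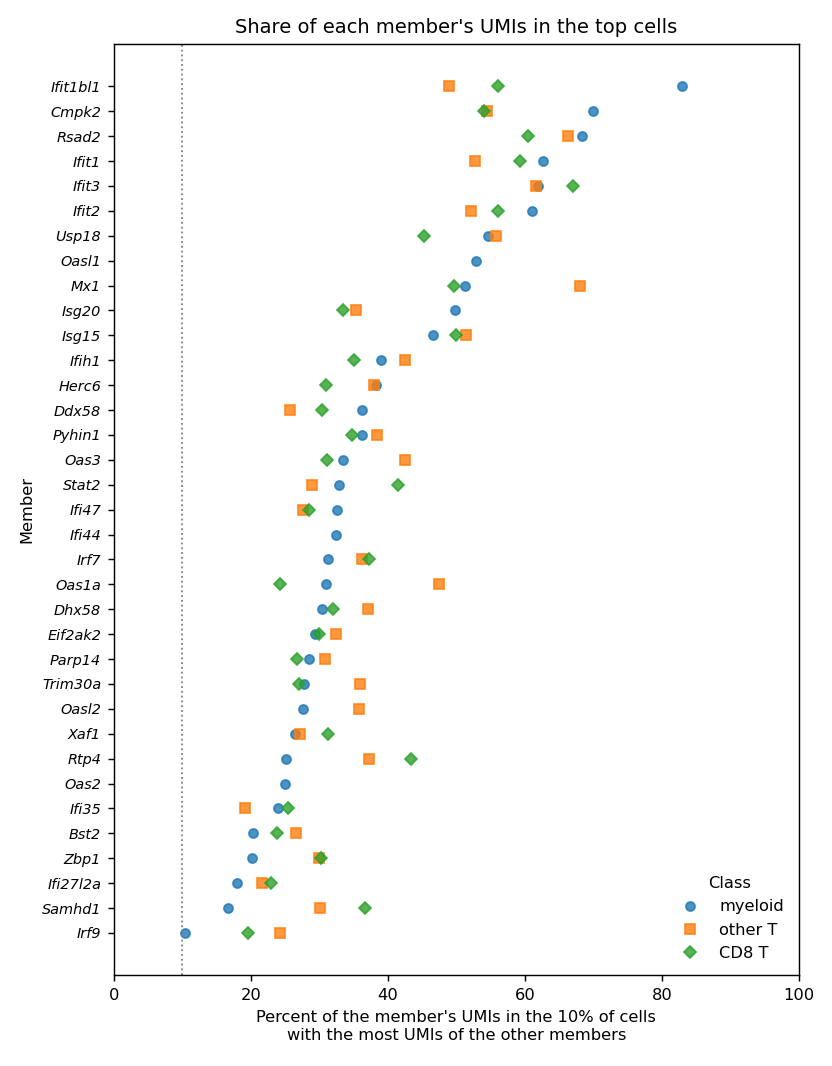
Percent of each member's thinned UMIs (x) found in the 10% of cells with the most UMIs of the other members, Ifi27l2a left out of the ranking. Values are for myeloid, other T and CD8 T cells, members ordered by the myeloid value. The dotted line marks 10%, and myeloid values run from 10.3% for Irf9 to 83.0% for Ifit1bl1.

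Cells with at least 5 member UMIs of 1000 were counted as high. Among myeloid cells 50.9%, 59.9% and 64.6% were high in Ac, C and aC+C and 63.5% in IgG. The exact interval of Ac, 47.8% to 54.0%, lay below those of the other libraries. These intervals cover counting error only and treat cells of the same library as independent, so no difference between treatments is read from them. Among other T cells 62.5%, 52.4% and 58.4% were high in Ac, C and aC+C and 52.4% in IgG. Without Ifi27l2a the other T shares were 34.1%, 27.3% and 36.9% in Ac, C and aC+C and 28.2% in IgG. NK cells, in which Ifi27l2a was low, gave 15.8%, 12.7% and 12.0% in Ac, C and aC+C and 11.7% in IgG. Unthinned, 82.4% to 100% of the cells of the 7 classes held at least 5 member UMIs.

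The treatments were compared as ratios of CPM within a class, with exact conditional binomial 95% intervals that cover counting error only, since the molecules of a cell are not independent. A member counts as higher or lower at a ratio of at least 1.5 either way, among those with at least 100 UMIs over both libraries, beside the same share over all genes. The comparisons with IgG share that library, and every direction below rests on 1 library against 1 library.

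In tumor-like cells, members were mostly higher in aC+C than in IgG. The sum was 3636 CPM in aC+C against 2627 CPM in IgG, a ratio of 1.38 (1.36 to 1.41), and 13 of 33 members were at least 1.5 times higher, against 2.74% of all genes. The median member ratio was 1.40, against 0.960 over all genes, and 31 of the 33 lay above 1. Ifit3 stood at 165 CPM in aC+C against 56.6 CPM in IgG, a ratio of 2.92 (2.56 to 3.35). Rsad2 stood at 155 CPM against 64.2 CPM in IgG, a ratio of 2.41 (2.13 to 2.74). Parp14 (91.7 against 41.9 CPM, ratio 2.19) and Usp18 (78.9 against 37.6 CPM) followed, and with Herc6 and Trim30a made all 4 regulators and modifiers higher, beside 7 of 16 effectors and 2 of 5 OAS genes. None of the 5 sensors or 3 transcription factors reached 1.5. Ifi27l2a, at 30.4 CPM against 52.6 CPM in IgG, was the 1 member lower, against 3.48% of all genes, and lay below its free RNA level in both. Without Ifi27l2a, the member sum of free RNA was also higher in aC+C, at 3794 CPM against 2873 CPM in IgG. Tumor-like cells held 3606 and 2575 CPM of the same 34 members. The part of free RNA in the tumor-like ratios was not tested.

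The summed ratios of Ac and C in tumor-like cells were nearer to 1. The summed ratio was 0.910 (0.889 to 0.931) for Ac, with 0 of 31 members higher, against 2.05% of all genes, and 0 lower, against 0.991%. For C it was 0.948, with a median member ratio of 1.01 and 17 of 31 members above 1, and it turned to 1.02 without the top cell of each library. In C, Oas1a was the 1 member higher (ratio 1.99), against 1.88%, and Rsad2 the 1 lower (0.52), against 1.03%. Set against Ac and C, aC+C had 18 of 33 members higher than Ac, against 2.07%, and 12 of 33 higher than C, against 2.02%. Rsad2 was 4.68 times higher in aC+C than in C.

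Few tumor-like cells carried these sums. There were 125, 107 and 276 such cells in Ac, C and aC+C and 62 in IgG, and the single cell with the most member UMIs held 4.95%, 5.61% and 2.60% of them in Ac, C and aC+C and 13.2% in IgG. Leaving that cell out of each library gave a summed aC+C ratio of 1.52, and weighting cells equally gave 1.19, below the 1.27 of other T cells under that weighting. The share of high cells ran the other way, 23.2% in aC+C (18.3% to 28.6%) and 27.4% in IgG (16.9% to 40.2%), with intervals that overlap, so no order is read from it. Interferon gamma targets were higher in the same comparison. Of 11 measured genes of that list, 10 were at least 1.5 times higher in tumor-like cells of aC+C than in IgG, with a median ratio of 2.21. Gbp2, a guanylate-binding protein, stood at 211, 287 and 597 CPM in Ac, C and aC+C and 198 CPM in IgG, and the chemokine gene Cxcl10 at 668, 471 and 1283 CPM in Ac, C and aC+C and 789 CPM in IgG. The part of interferon gamma in the member ratios was not tested.

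Stromal cells of aC+C gave a smaller and less even difference. The sum was 5340 CPM in aC+C against 4702 CPM in IgG, a ratio of 1.14 (1.11 to 1.16), with 5 of 32 members higher, against 2.27% of all genes, and 2 lower, against 5.38%. Ifi47 led at 358 CPM against 158 CPM in IgG, a ratio of 2.27 (2.05 to 2.53), followed by Oasl1 (1.72), Oas1a (1.66) and Zbp1 (1.55). Ifi27l2a (0.46) and Oas2 (0.62) were lower. The summed direction turned to 0.990 with cells weighted equally and to 0.923 in classes built by clustering. Ac (0.835) and C (0.824) lay below IgG, with 1 higher and 3 lower members of 32 in Ac, against 1.06% and 4.7%, and 1 higher and 5 lower in C, against 1.39% and 4.24%. In C, Isg15 stood at 200 CPM against 392 CPM in IgG (ratio 0.51). Set against Ac and C, aC+C had 11 of 32 members higher than Ac, against 3.56%, and 11 of 32 higher than C, against 3.12%. In stromal cells too, 10 of 11 interferon gamma targets were higher in aC+C than in IgG, with a median ratio of 2.07, which was not tested as a source.

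Other T cells had higher sums in aC+C and Ac than in IgG, but not in C. For aC+C the ratio was 1.28 (1.26 to 1.31), with 13 of 33 members higher, against 1.73% of all genes, and 0 lower, against 5.26%. Of 17 effectors 10 were higher. Oas1a stood at 38.3 CPM in aC+C against 13.8 CPM in IgG, a ratio of 2.77 (1.92 to 4.07), Ifit1 at 281 CPM against 128 CPM in IgG, a ratio of 2.19 (1.94 to 2.49), and Ifit3 at 190 CPM against 94.9 CPM in IgG, a ratio of 2.00 (1.73 to 2.32). Cmpk2 (2.07) and the sensor gene Ifih1 (1.96) were also among them.

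For Ac the ratio in other T cells was 1.25 (1.23 to 1.27), with 7 of 34 members higher, against 1.75%, and 0 lower, against 2.13%. Ifit1 stood at 218 CPM in Ac against 128 CPM in IgG, a ratio of 1.70 (1.51 to 1.93), and Oas1a (2.22), Ifi44 (1.80) and Ifit2 (1.77) lay above it. For C the ratio was 0.903, with 2 of 32 members higher (Oas1a, 1.98, and Cmpk2, 1.65), against 0.887%, and 0 lower, against 2.25%. It turned to 1.01 without Ifi27l2a, whose own ratio in C was 0.80. Set against C, aC+C had 9 of 32 members higher, against 1.6%, whereas 0 of 34 members were 1.5 times higher, against 1.06%, or lower, against 2.85%, in aC+C than in Ac.

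The other T gate mixes kinds of T cell, and the member sum was higher in the cells with a UMI of Foxp3, the factor of regulatory T cells. Those cells held 12856, 9456 and 12950 CPM in Ac, C and aC+C and 10373 CPM in IgG, and numbered 248, 154 and 145 in Ac, C and aC+C and 118 in IgG. Cells without a Foxp3 UMI held 6907, 5812 and 8175 CPM in Ac, C and aC+C and 6075 CPM in IgG. The ratios over IgG were 1.24, 0.912 and 1.25 for Ac, C and aC+C in cells with Foxp3, and 1.14, 0.957 and 1.35 in cells without. Without Ifi27l2a, cells with Foxp3 held 5884, 4590 and 5806 CPM in Ac, C and aC+C and 4895 CPM in IgG, and cells without it 3668, 3469 and 4704 CPM in Ac, C and aC+C and 3117 CPM in IgG. Ac and aC+C thus lay above IgG in both subsets on either sum, whereas C without Ifi27l2a lay below IgG in cells with Foxp3 and above it in cells without. Not every member was higher in cells with Foxp3. In aC+C they held 257 CPM of Ifit1 and 169 CPM of Ifit3, against 294 and 202 CPM in cells without Foxp3. The subsets were set after the data were seen. Of 8 measured dissociation-response genes 2 were lower in Ac and 3 in aC+C, with median ratios of 0.713 and 0.723, and 0 were higher.

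Over the whole gate, myeloid cells of Ac and C lay below IgG for nearly all members. For Ac the summed ratio was 0.770 (0.761 to 0.779), and 0 of 35 members lay above 1. Only 2 passed 1.5 times lower, against 1.82% of all genes, and 0 higher, against 2.88%. Ifi35 stood at 80.6 CPM in Ac against 129 CPM in IgG, a ratio of 0.62 (0.57 to 0.69), and Usp18 at 69.9 CPM against 108 CPM in IgG (0.64). For C the ratio was 0.824 (0.815 to 0.834), with 2 of 35 members above 1 and 0 lower, against 2.37%, or higher, against 2.42%, by 1.5 times. Isg15 stood at 338 CPM in C against 500 CPM in IgG, a ratio of 0.68 (0.64 to 0.71). Oas1a was the highest, with 80.9 CPM in C against 54.1 CPM in IgG, just under the threshold.

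Myeloid cells of aC+C stood near IgG, with a ratio of 0.970 (0.959 to 0.981), 14 of 35 members above 1, and 0 past 1.5 times either way, against 3.16% and 2.72%. Cmpk2 (1.42), Oas1a (1.36) and Rsad2 (1.34) were highest, and Stat2 (0.75), Oas2 (0.76) and Isg20 (0.76) lowest. Set against Ac, 34 of 35 members were above 1 in aC+C and 4 passed 1.5 times higher, against 1.78%. Cells rich in the complement genes C1qa, C1qb and C1qc, which mark tumor macrophages, gave ratios over IgG of 0.734, 0.771 and 0.924 for Ac, C and aC+C. Cells poor in them gave 0.949, 0.944 and 1.05. The difference between Ac or C and IgG was thus larger in the C1q-rich cells, and this was not tested. Poor cells held more of the members, 9627 CPM in Ac and 10147 CPM in IgG, against 5659 and 7709 CPM in rich cells. They numbered 348, 454 and 603 in Ac, C and aC+C and 198 in IgG, beside 658, 607 and 708 and 268 rich cells. In poor cells of Ac, Ifit1 (285 against 212 CPM in IgG) and Irf7 (565 against 518 CPM) were higher. Isg15 (605 against 706 CPM) and Zbp1 (283 against 354 CPM) were lower there. The part of this mix in the class ratios was not tested.

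Dendritic cells of aC+C lay below IgG. Their sum was 2887 CPM in aC+C against 4168 CPM in IgG, a ratio of 0.693 (0.661 to 0.726), with 8 of 18 members lower, against 7.8% of all genes, and 0 higher, against 4.59%. Rsad2 stood at 28.6 CPM in aC+C against 77.7 CPM in IgG, a ratio of 0.37 (0.23 to 0.57), and Isg15 at 186 CPM against 355 CPM in IgG, a ratio of 0.52 (0.44 to 0.62). Pyhin1 (0.47) and Oasl2 (0.55) were also low. For Ac the ratio was 0.753 (0.724 to 0.783), with 5 of 25 members lower, against 3.37%, and 0 higher, against 3.46%, led by Rsad2 (0.33), Ifit3 (0.50) and Ifi27l2a (0.53). Dendritic Ifi27l2a lay below its free RNA level in both libraries. For C it was 0.866, with 3 of 23 lower, against 5.92%, and 1 higher, against 3.12%.

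These rest on 113, 85 and 76 dendritic cells in Ac, C and aC+C and 108 in IgG. The 1 cell with the most member UMIs held 7.55%, 8.03% and 8.07% of them in Ac, C and aC+C and 9.30% in IgG, and the median level per cell was 2048 CPM in aC+C and 2166 CPM in IgG. Weighting cells equally gave 0.884 for aC+C, and classes built by clustering gave 0.877. The subsets of this class differed, and this was not tested. Cells rich in Ccr7, Fscn1 and Ccl22, which mark migratory dendritic cells, gave ratios over IgG of 0.608, 0.850 and 0.969 for Ac, C and aC+C, and those poor in them 0.838, 0.856 and 0.523. The order of the subsets was thus opposite in Ac and aC+C. Rich cells numbered 59, 26 and 42 in Ac, C and aC+C and 63 in IgG, and poor cells 54, 59 and 34 in Ac, C and aC+C and 45 in IgG. In the same comparison 5 of 8 dissociation-response genes were lower, with a median ratio of 0.623, and their part was not tested.

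NK cells differed least. The summed ratio was 1.07 (1.05 to 1.10) for Ac, 0.968 for C and 0.970 (0.938 to 1.003) for aC+C. In Ac 1 of 32 members was higher, against 0.699%, namely Ifit3 at 2.00 (1.46 to 2.77), and 0 lower, against 0.672%. In C 1 of 32 was higher, against 1.37%, and 0 lower, against 0.847%. In aC+C Oas1a (1.73) was higher, against 1.9%, and Oas3 (0.63) lower, against 2.42%, of 30 members. Set against Ac, 4 of 30 members were lower in aC+C, against 1.83%. CD8 T cells, for comparison, gave summed ratios of 0.966, 0.925 and 0.812 for Ac, C and aC+C.

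**Figure D5:**
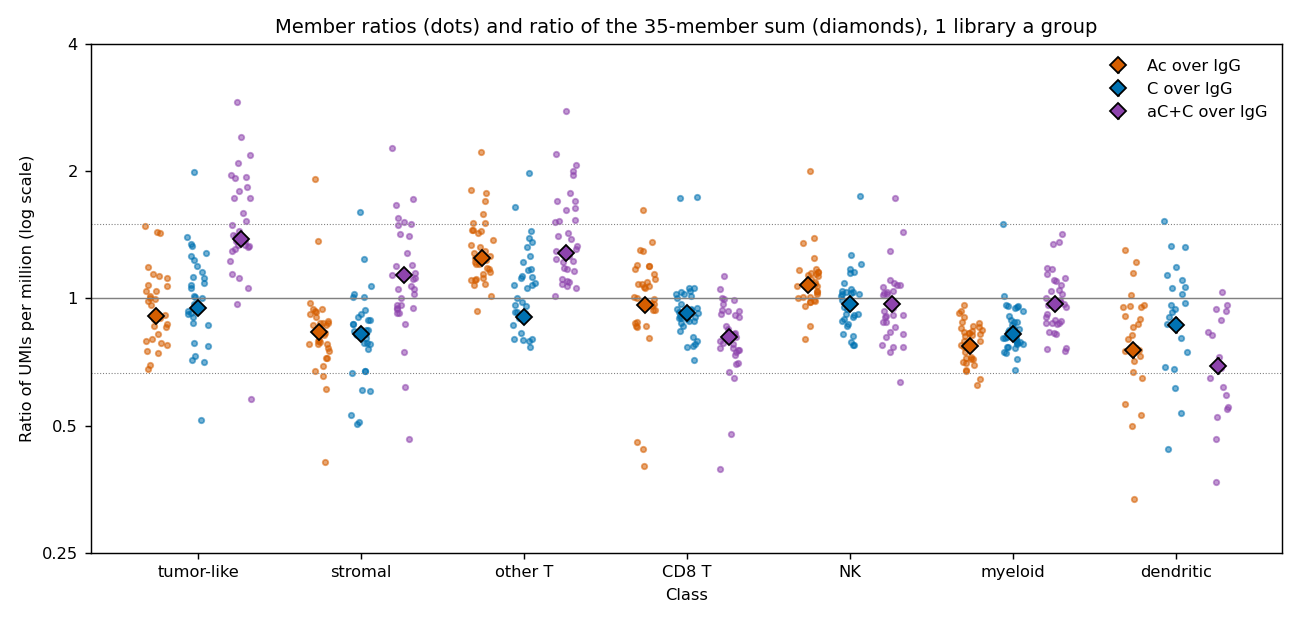
Ratio of UMIs per 1000000 UMIs over IgG (y, log scale) in 7 classes (x) for Ac, C and aC+C. Dots are members with at least 100 UMIs over both libraries, diamonds the 35-member sum with its 95% counting interval, and dotted lines a ratio of 1.5 either way; aC+C runs from 1.38 in tumor-like to 0.693 in dendritic cells.

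Oas1a, an OAS enzyme gene with near copies in its cluster, was singled out after its values were seen. Among members with at least 100 UMIs it lay above IgG in 15 of 18 ratios (6 classes, 3 treatments), with a median of 1.63. The next highest member median was 1.11, for Ifit2. Beside the myeloid value, the Oas1a ratio in C was 1.73 in CD8 T cells, 1.98 in other T cells, 1.75 in NK cells, 1.60 in stromal cells and 1.99 in tumor-like cells. All these ratios share the IgG library. Reads of Oas1a, Ifit3, Ifit1bl1, Trim30a and Ifi27l2a may be divided with or lost to their near copies, so their levels are uncertain.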

How the data were processed

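The authors deposited 1 matrix of raw UMI counts per library, per the file headers, made with Cell Ranger 2.1.1 on mm10, per the submitters' processing notes, while the matrix headers name 3.0.2; the chemistry was single cell 3′ v2, per the labels' protocols. Barcodes with at least 1000 UMIs and at most 10% mitochondrial UMIs were kept, no doublet caller was run, and doublets were limited by the upper bounds of the gates. Gates on marker UMIs per 10000 UMIs, set after the data were seen, gave the classes. Members and lists were chosen with earlier results of these data known. Per-library values are printed for the members with the highest mean of each role, for up to 5 members per direction of each class contrast, and for up to 4 highest and 4 lowest ratios per treatment.

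Counts were summed per library and class and tested with edgeR 4.0.16 (glmQLFit, filterByExpr, TMM, Benjamini-Hochberg over all genes tested), n = 4 libraries a class, with the library as a block because classes of 1 library come from the same cell suspension. Nothing in the labels says that the libraries came from separate animals, so these p-values measure only the spread between these libraries. The test was run on counts simulated from the CD8 T profile, with no library or treatment effect. That check does not cover the spread between these libraries. Treatment ratios have exact conditional binomial intervals (scipy), and shares of cells exact Clopper-Pearson intervals, both for counting error only, since molecules of 1 cell are not independent. Free RNA was read from barcodes of 1 to 50 UMIs. Alternatives were DESeq2 1.42.0, size factors by relative log expression, no filter, no block, each library left out, stricter barcode limits, Leiden clusters (scanpy 1.11.5) built without interferon genes, free RNA removal, a fold of 2, equal cell weights and, chosen after seeing the data, sums without Ifi27l2a, gate minimums raised 1.5 times, and sums without the top cell.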

Additional observations from a re-analysis of the deposited data

Results flagged for a closer look

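Under the same treatment the summed member ratio over IgG ran in opposite directions in different classes. For Ac it was 1.25 in other T cells, where 33 of 34 members lay above 1, and 0.753 in dendritic cells, where 4 of 25 did. For aC+C it was 1.38 in tumor-like cells, where 31 of 33 members lay above 1, and 0.693 in dendritic cells, where 1 of 18 did. Each value rests on 1 library a group, and the difference between classes was not tested.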

How the results depend on the processing

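Every treatment value rests on 1 library a group, dendritic, stromal and tumor-like sums on 62 to 276 cells a library, and intervals cover counting error only. No paired analysis was possible because each treatment group holds 1 library.

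Summed ratios were recomputed 168 times; 101 moved by less than their counting interval, 61 by more, and 6 whose interval left out 1 turned. The turned ones were Ac in CD8 T cells (1.04 without Ifi27l2a), Ac in NK cells (0.950 in clusters), C in other T cells (1.01 without Ifi27l2a), aC+C in stromal cells (0.990 with equal weights, 0.923 in clusters) and C in tumor-like cells (1.02 without the top cell). The aC+C ratio in NK cells, whose interval held 1, also crossed it, to 1.01 with equal weights. The cause was not tested. Of 84 recomputed summed levels 59 moved and 25 did not. Of 56 recomputed shares of high cells 41 moved and 15 did not.

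With at least 5000 UMIs per barcode, other T cells gave 1.28, 0.873 and 1.24 for Ac, C and aC+C, and myeloid cells 0.760 and 0.810 for Ac and C. With at most 5% mitochondrial UMIs, other T cells gave 1.20, 0.844 and 1.19 for Ac, C and aC+C, NK cells 1.03 for Ac, myeloid cells 0.751 for Ac and 0.941 for aC+C, dendritic cells 0.710 for Ac and 0.822 for C, and stromal cells 0.856 for Ac and 1.23 for aC+C. In clusters, other T cells gave 1.17 for Ac, NK cells 0.889 for aC+C, myeloid cells 0.834 for C, dendritic cells 0.717, 0.697 and 0.877 for Ac, C and aC+C, stromal cells 0.934 and 0.754 for Ac and C, and tumor-like cells 0.861 for Ac and 1.45 for aC+C. With cells weighted equally, other T cells gave 1.21 and 0.921 for Ac and C, NK cells 1.01 for aC+C, myeloid cells 0.812 and 0.860 for Ac and C, dendritic cells 0.798 for Ac and 0.884 for aC+C, stromal cells 0.803 for Ac, and tumor-like cells 0.909 for C and 1.19 for aC+C. With 5% free RNA removed, NK cells gave 0.937 for aC+C.

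Of the alternatives chosen after seeing the data, leaving out Ifi27l2a gave 1.35 for aC+C in other T cells, 0.785, 0.843 and 0.997 for Ac, C and aC+C in myeloid cells, 0.815 and 0.917 for Ac and C in dendritic cells, and 1.16 for aC+C in stromal cells. Raised gate minimums gave 0.803, 0.797 and 1.04 for Ac, C and aC+C in stromal cells. Leaving out the cell with the most member UMIs gave 0.980 for Ac and 1.52 for aC+C in tumor-like cells. A fold of 2 left 4 members higher in other T cells and 4 in tumor-like cells of aC+C.

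For class contrasts, 30 members higher in other T and 31 in myeloid than in CD8 T cells stayed within 1.5 times under every alternative run. Members higher in tumor-like than in stromal cells numbered 1 with DESeq2 and 1 without the filter, against 0. Dropping the replicate block left 3 members higher in NK than in CD8 T cells, against 5, and kept 18 of 24 calls. Members higher in dendritic than in myeloid cells numbered 2 in clusters, against 1, and there 24 of the 31 calls were shared and 2 of the 31 members changed sign. With each library left out in turn, members higher numbered 0 to 1 in dendritic over myeloid cells and 0 to 1 in tumor-like over stromal cells.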
